A study of Rattus norvegicus with 19 samples.

Results

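Resting neuron cultures of rat cortex and of rat hippocampus were compared at transcriptionally active putative enhancers (TAPEs), which are stretches of open chromatin outside genes that give RNA from both strands. The 6 vehicle libraries of these regions, 3 from cortex and 3 from hippocampus, were chosen from the 19 libraries of the series. The level of a TAPE was its read count scaled to the length of the TAPE and the size of the library (CPKM, counts per kilobase and depth), and TAPEs entered the test if their mean CPKM over all 19 libraries was at least 0.05. Of 27538 TAPEs, 1870 (6.79%) met this rule. Both groups were primary cultures of Sprague-Dawley rat tissue taken at embryonic day 18. After 11 days in vitro both received Neurobasal medium as vehicle for 1 h before total RNA was taken. Cortex and hippocampus cultures treated for 1 h with KCl, which depolarizes neurons, gave the same contrast in 6 further libraries. For KCl, 25 mM is given with the samples, whereas 10 mM is stated for the series. These are mixed cultures of neurons and glia, so each value is an average over the cells of a well.

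Cortex and hippocampus both arise from the pallium, the dorsal part of the embryonic telencephalon, and their excitatory neurons share transcription factors such as Emx1 and Neurod2. They part through factors of their own. Neocortical layers carry nuclear receptors and POU factors such as Rorb and Pou3f2, and Prox1 marks granule neurons of the dentate gyrus, while Wnt signals from the cortical hem set up the hippocampal field. Active enhancers are transcribed into short-lived enhancer RNA, and many enhancers are active in 1 cell type or region and silent in its neighbours.

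The resting cortex libraries held 62.4 to 72.5 M reads and the resting hippocampus libraries 55.2 to 58.1 M, so cortex was sequenced more deeply in every library. A tested TAPE had a median of 12 reads per library. TAPEs of any level took 0.1128% ± 0.011 of the reads in cortex and 0.1095% ± 0.006 in hippocampus (SD, n = 3 each). This difference was within the spread between libraries (exact two-sided permutation test, p = 0.7, where the smallest p possible is 0.1). Libraries of the same group correlated at 0.771 to 0.782 over the tested TAPEs, on the log2 scale, and libraries of different regions at 0.617 to 0.654. The title of the third cortex vehicle library names cortex, but its tissue entry names striatum, and the title was followed. Over 890 TAPEs that depended on region in a fit without it, replicate 3 correlated at 0.875 with the mean of cortex, 0.639 with hippocampus and 0.384 with striatum. The sources used here do not say whether the 3 libraries of a group came from separate litters, so p-values measure the spread between these libraries.

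At rest, 136 of 1870 TAPEs (7.27%) differed between the cultures at an adjusted p under 0.05 in a limma test on log2(CPKM + 0.05), with Benjamini-Hochberg adjustment over all tested TAPEs. Of these, 65 (3.48% of those tested) were higher in hippocampus and 71 (3.8%) were higher in cortex. The median difference over all tested TAPEs was -0.07 on the log2 scale, where positive values mean higher in hippocampus. With libraries centred on their medians the counts were 77 and 63, so which region had more of them turned with the scaling. The 3 cortex and the 3 hippocampus values did not overlap at any of the 136 TAPEs, and they did not overlap at 24.4% of all tested TAPEs. Differences among the called TAPEs had a median size of 1.33 log2 units in hippocampus (0.71 to 2.65) and 1.25 in cortex (0.76 to 3.31). Without cortex vehicle replicate 3 the count was 72, 43 higher in hippocampus and 29 in cortex, and without any other library it was 73 to 93. The 20 TAPEs with the smallest adjusted p, 10 in each direction, stayed called when any 1 of the 6 libraries was left out, as did 52 of the 136 in all.

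**Figure D1:**
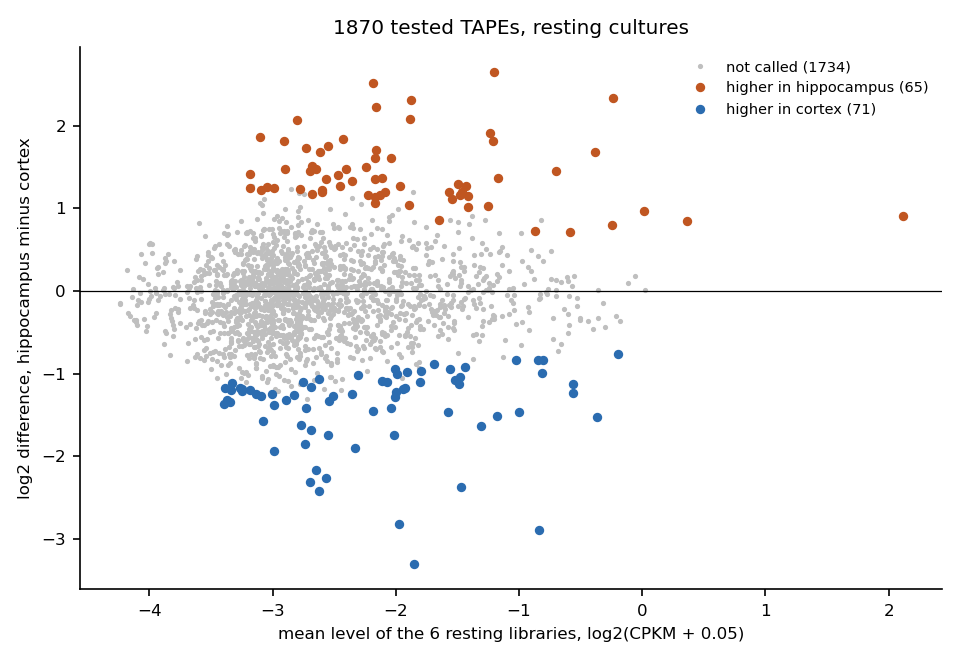
The 1870 tested TAPEs in resting cultures, with the mean level of the 6 libraries as log2(CPKM + 0.05) on the x axis and the log2 difference, hippocampus minus cortex, on the y axis. Orange points are the 65 TAPEs higher in hippocampus, blue points the 71 higher in cortex and grey points the TAPEs that did not pass; called TAPEs lie at high and low levels.

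The transcribed element nearest to Prox1 separated the cultures. It spans 1468 bp at chr13:108376448-108377915 of the Rn6 assembly, 5.22 kb from the start of Prox1, and it was the only 1 of 2 TAPEs nearest to Prox1 with enough reads to test. Its level was 0, 0.0564 and 0 CPKM in the cortex libraries and 0.361, 0.258 and 0.346 CPKM in the hippocampus libraries. Reads were thus found in 1 cortex library and in every hippocampus library, with 6 reads against 80 over the groups. The log2 difference was 2.52 (SE 0.35, adjusted p = 0.00021). In striatum vehicle libraries the mean was 0.00588 ± 0.0118 CPKM (SD, n = 4). The Prox1 gene had the same direction, with 7.79, 8.0 and 8.72 RPM (gene reads scaled to library size) in cortex and 157, 162 and 161 RPM in hippocampus. Among the 7 genes with a start within 1 Mb, Prox1 was the only 1 called higher in hippocampus, and Kcnk2, a two-pore potassium channel gene, was called higher in cortex at 22.3 ± 0.813 against 8.96 ± 0.13 RPM (SD, n = 3 each), as were Smyd2 and Cenpf. Over all genes, 16.5% were called higher in hippocampus and 14.6% in cortex.

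The TAPE higher in hippocampus with the smallest adjusted p lay 149 kb from the start of Synpr, which encodes synaptoporin, a synaptic vesicle protein of hippocampal mossy fibres. It was at 0.211, 0.291 and 0.191 CPKM in cortex and at 1.22, 1.39 and 1.48 CPKM in hippocampus, a log2 difference of 2.34 (SE 0.2, adjusted p = 1.5e-06). Synpr itself was at 19.1 ± 1.01 RPM in cortex and 33.4 ± 0.587 in hippocampus (adjusted p = 0.0245). Its call was lost without cortex vehicle replicate 1 or any 1 hippocampus library (adjusted p from 0.057 to 0.0606). In striatum vehicle libraries the gene was highest, at 125 ± 0.827 RPM, and the TAPE lowest, at 0.138 ± 0.0336 CPKM (SD, n = 4). Grik4 encodes a kainate receptor subunit known from CA3 and the dentate gyrus. A TAPE 142 kb from its start was at 0.121, 0.112 and 0.147 CPKM in cortex and 0.478, 0.731 and 0.658 CPKM in hippocampus (difference 1.91, SE 0.24). Of 3 tested TAPEs nearest to Grik4, only this 1 was called. The Grik4 gene was at 32.6 ± 4.61 and 119 ± 9.57 RPM.

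Apcdd1 encodes a membrane-bound inhibitor of Wnt signalling. A TAPE 11.4 kb from its start (chr18:58257352-58260757, Rn6) was at 0.0471, 0.0648 and 0.048 CPKM in cortex and 0.363, 0.344 and 0.457 CPKM in hippocampus (difference 2.08, SE 0.27, adjusted p = 0.000129). The gene was at 12.5, 12.1 and 12.2 RPM in cortex and 54.2, 55.5 and 54.5 in hippocampus, so TAPE and gene were both higher in each hippocampus library than in any cortex library. Of 13 genes within 1 Mb of this TAPE, 6 were called higher in hippocampus and 0 in cortex, where 16.5% and 14.6% of all genes were. The promoter is shown because the TAPE and the gene close to it moved together. It is the 250 bases before the RefSeq gene start, on the plus strand of the GRCr8 assembly at chr18:58655446-58655695, and 65.2% of its bases are G or C.
Apcdd1 promoter: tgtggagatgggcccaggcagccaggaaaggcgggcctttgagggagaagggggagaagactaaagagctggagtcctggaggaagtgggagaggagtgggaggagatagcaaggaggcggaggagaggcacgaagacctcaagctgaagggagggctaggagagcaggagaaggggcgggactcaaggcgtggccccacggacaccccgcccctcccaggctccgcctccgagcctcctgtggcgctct

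A pair of TAPEs near Vegfa, the gene of a growth factor for blood vessels and neurons, were higher in hippocampus. At 144 kb from the gene start the mean was 0.0738 ± 0.0569 CPKM in cortex and 0.693 ± 0.199 in hippocampus (SD, n = 3 each), a difference of 2.65 (SE 0.32). At 136 kb the means were 0.0434 ± 0.028 and 0.4 ± 0.0365 CPKM (difference 2.31, SE 0.3). These elements lie on the same side of the gene in a stretch with 48 gene starts within 1 Mb. Of these genes, 6 were called higher in hippocampus and 10 in cortex, against 16.5% and 14.6% of all genes. Vegfa itself was at 69.0 ± 3.96 and 82.1 ± 2.32 RPM (difference 0.25, SE 0.05, adjusted p = 0.0173). Its call was lost without cortex vehicle replicate 3 (adjusted p = 0.0518), hippocampus vehicle replicate 2 (0.0596) or hippocampus vehicle replicate 3 (0.0627), and its difference after KCl was 0.0.

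The other TAPEs with the smallest adjusted p in this direction lay farther from a gene start. Near Spata19, a gene of the male germ line, a TAPE at 388 kb was the most abundant of those described, at 2.97 ± 0.252 CPKM in cortex and 5.6 ± 0.0838 in hippocampus (difference 0.91, SE 0.1), and the gene had almost no reads in either culture. A TAPE 243 kb from Hnrnpd, which encodes an RNA-binding protein, was at 0.313 ± 0.016 and 1.12 ± 0.145 CPKM (difference 1.68, SE 0.19), while Hnrnpd itself was not called (adjusted p = 0.213). TAPEs near Pappa1 (difference 1.46, SE 0.2) and LOC108350059 (1.82, SE 0.25) had no gene profile beside them. The last 2 genes were thus not measured, and neither of the first 2 was called.

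On the cortex side, the element with the smallest adjusted p was next to Mpped1, a metallophosphoesterase gene expressed in the developing cortex. The TAPE at chr7:124669911-124674064 (Rn6), 8.31 kb from the gene start, was at 0.83, 0.79 and 1.19 CPKM in cortex and 0.0596, 0.104 and 0.0829 CPKM in hippocampus (difference -2.89, SE 0.25, adjusted p = 1.5e-06). Striatum vehicle libraries were between them, at 0.415 ± 0.0779 CPKM (SD, n = 4). The gene was at 190, 194 and 190 RPM in cortex and 16.9, 15.6 and 13.8 in hippocampus. Of 27 genes within 1 Mb, 8 were called higher in cortex and 6 in hippocampus, against 14.6% and 16.5% of all genes. Scube1, which encodes a secreted EGF-domain protein, was at 57.1 ± 6.65 against 3.1 ± 0.413 RPM, and Efcab6 at 16.3 ± 2.8 against 1.2 ± 0.218, while Pacsin2, Prr5 and Nfam1 were among those higher in hippocampus. The promoter is shown, as for Apcdd1, because a TAPE under 12 kb away and the gene moved together. It is the 250 bases before the RefSeq gene start, on the plus strand of GRCr8 at chr7:116824504-116824753, and capitals mark the 1 match, at position 186 from the 5′ end, to CAGATG or its reverse complement CATCTG, an E-box form that proneural basic helix-loop-helix factors such as the Neurod family bind.
Mpped1 promoter: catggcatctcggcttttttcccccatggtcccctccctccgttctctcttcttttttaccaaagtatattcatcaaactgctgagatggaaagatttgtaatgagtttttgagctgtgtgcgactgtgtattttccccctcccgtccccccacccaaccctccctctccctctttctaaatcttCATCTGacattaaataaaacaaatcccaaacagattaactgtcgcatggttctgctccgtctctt

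The letters CAGATG, searched on both strands, were in 14% of all 33469 RefSeq promoter windows of this length. They were in 8 of 51 windows (15.7%) of the genes nearest to TAPEs higher in cortex, where 38 of 60 genes matched the table, and in 7 of 52 (13.5%) of those nearest to TAPEs higher in hippocampus, where 42 of 62 genes matched. Both shares were close to that of all windows. The Apcdd1 window held no match, which says only that these letters are not in that window.

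Several cortex TAPEs came in groups. Ptprd encodes a receptor tyrosine phosphatase that organizes synapses, and 2 of its 3 tested TAPEs were called. The TAPE at 161 kb was at 0.544, 0.655 and 0.448 CPKM in cortex and 0.04, 0.0389 and 0.137 CPKM in hippocampus (difference -2.37, SE 0.31). At 156 kb the means were 0.559 ± 0.0463 and 0.148 ± 0.0308 CPKM (difference -1.63, SE 0.23). Ptprd, the single gene with a start within 1 Mb, was at 513 ± 32.8 RPM in cortex and 170 ± 10.2 in hippocampus, so both TAPEs and the gene were higher in cortex.

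Near the uncharacterized gene LOC102547949 all 3 tested TAPEs were higher in cortex. The strongest, at 208 kb, was at 0.428, 0.313 and 0.448 CPKM in cortex and 0.00944, 0.0184 and 0.00967 CPKM in hippocampus (difference -2.83, SE 0.3). The TAPEs at 395 kb and 564 kb had no reads in hippocampus. Set against a floor of 3 reads over the group, cortex was 28.0-fold and 17.7-fold higher. Mates of a fragment often count as 2 reads, so these folds are not lower bounds. The gene went the other way, at 1.72 ± 0.131 RPM in cortex and 3.67 ± 0.241 in hippocampus (difference 0.91, SE 0.12). It was the only gene of the deposited table with a start within 1 Mb.

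The largest group lay 444 to 544 kb from Nuf2, a kinetochore gene, where 5 of 8 tested TAPEs were called and all 5 were higher in cortex. At the TAPE with the smallest adjusted p (471 kb) the level was 0.175, 0.207 and 0.304 CPKM in cortex, while hippocampus had 2 reads in 1 library and none in the other two. The 5 called TAPEs were at 0.0121 CPKM or below in striatum vehicle, so they had little RNA outside cortex. Nuf2 was not called (9.4 ± 0.207 and 8.75 ± 0.528 RPM). Of the 7 genes within 1 Mb of the 471 kb TAPE, 2 were called higher in cortex and 1 in hippocampus. Among them Rgs4, a regulator of G-protein signalling, was at 161 ± 18.6 against 76.7 ± 0.976 RPM, and Ccdc190 was at 0.137 ± 0.041 against 0.271 ± 0.0201.

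The remaining cortex TAPEs named by adjusted p were near LOC102549170 (72.1 kb), Pmfbp1 (249 kb) and Celf2 (547 kb). The first was at 0.224 ± 0.0728 CPKM in cortex (SD, n = 3) with no read in hippocampus. This is 27.4-fold higher when set against the same floor of 3 reads, again not a lower bound. The TAPE near Pmfbp1 was at 0.606 ± 0.0726 and 0.18 ± 0.0298 CPKM, but striatum was higher still at 0.851 ± 0.0335 (SD, n = 4). Near Celf2, which encodes a splicing factor, the means were 0.684 ± 0.108 and 0.217 ± 0.054 CPKM. None of these nearest genes was called (Celf2, adjusted p = 0.217), and 2 of them had almost no reads. Among tested TAPEs, 2 of 5 nearest to Celf2 were called, and 1 of 2 nearest to LOC102549170.

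**Figure D2:**
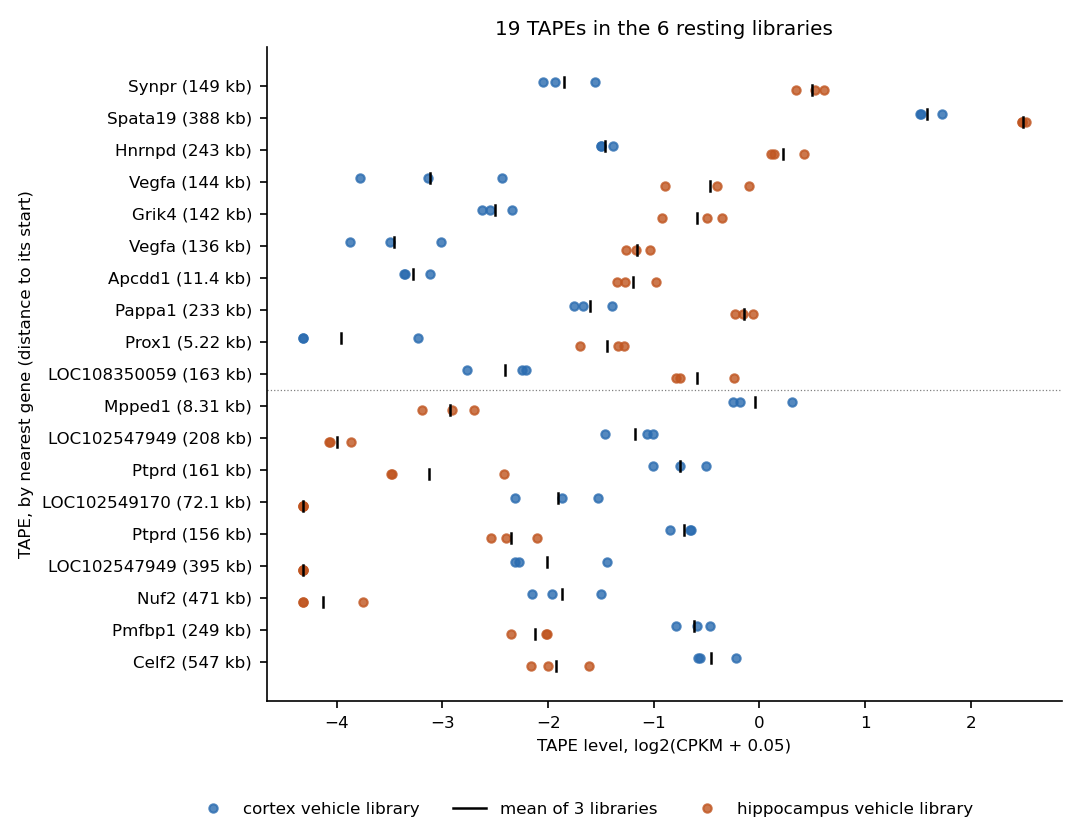
The 19 TAPEs described, 10 higher in hippocampus above the dotted line and 9 higher in cortex below it, each labelled by its nearest gene and the distance to its start. Points are single vehicle libraries on the log2(CPKM + 0.05) scale, black ticks are means of 3 libraries, and the 2 groups are apart at every TAPE; points at the left edge are libraries without a read.

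All 7 called TAPEs whose nearest gene was a microRNA gene were higher in cortex, out of 66 tested TAPEs of that kind, where 7.27% of all tested TAPEs were called and 3.8% were higher in cortex (these and the TAPEs of the next paragraph were picked out after their values were seen). 2 of them lay near the miR-181 genes, which give abundant microRNAs of neurons and lymphocytes. They were 1 of 2 tested TAPEs nearest to Mir181a2 and the only tested TAPE nearest to Mir181b2. The TAPE 28.7 kb from Mir181a2 had a mean of 0.343 CPKM in cortex and 0.131 in hippocampus (difference -1.11, SE 0.28, adjusted p = 0.0247), and the TAPE 5.8 kb from Mir181b2 had 0.401 and 0.178 CPKM (difference -0.95, SE 0.28, adjusted p = 0.0487). The others were near Mir107, Mir297, Mir331, Mir490 and Mir3597-2. Mature microRNAs were not measured. The mature 5p forms of the miR-181 family are shown because both TAPEs sit beside genes of 1 seed family. In the RefSeq sequences of GRCr8 below, capitals mark the seed, bases 2 to 8, which is the same in each.
miR-181a-5p: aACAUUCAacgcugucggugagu
miR-181b-5p: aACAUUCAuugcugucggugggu
miR-181c-5p: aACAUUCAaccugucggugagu
miR-181d-5p: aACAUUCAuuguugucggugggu
The mature form of Mir181a2 is the first of these, and that of miR-181b is read from the Mir181b1 entry. Mir107, the nearest gene of a TAPE 17.5 kb away, has another seed.
miR-107-3p: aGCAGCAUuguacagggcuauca

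Other called TAPEs lay near genes of transcription factors, ligands and receptors. Higher in cortex were a TAPE 9.57 kb from Pou3f2, a POU factor of upper-layer neurons (0.332 against 0.0635 CPKM, difference -1.75, SE 0.28), a TAPE 7.88 kb from Nkx2-2, a factor of oligodendrocyte precursors (0.311 against 0.11 CPKM, difference -1.19, SE 0.27), and 2 TAPEs 51.6 and 56.2 kb from the Wnt ligand gene Wnt7a (differences -1.01, SE 0.29, and -1.18, SE 0.31). The genes Pou3f2, Nkx2-2 and Wnt7a were higher in cortex as well, for example Pou3f2 at 8.91 ± 0.536 against 2.03 ± 0.445 RPM. Higher in hippocampus were a TAPE 259 kb from Nr3c2, the mineralocorticoid receptor gene (0.0153 against 0.105 CPKM, difference 1.24, SE 0.33), and 1 at 6.35 kb from Npy2r, a neuropeptide Y receptor gene (0.0614 against 0.261 CPKM, difference 1.5, SE 0.35). Nr3c2 was at 37.1 ± 4.91 and 115 ± 11.3 RPM.

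At 2 further genes the gene and the TAPE had opposite directions. A TAPE 15.1 kb from Fezf2, a factor of subcortical projection neurons, was higher in hippocampus (0.0217 against 0.146 CPKM, difference 1.48, SE 0.35), and the Fezf2 gene was higher in cortex (38.3 ± 3.67 against 19.2 ± 0.618 RPM). A TAPE 32.3 kb from Wnt7b was higher in hippocampus (0.049 against 0.18 CPKM, difference 1.22, SE 0.3), and the gene was at 69.8 ± 1.03 RPM in cortex and 61.4 ± 1.68 in hippocampus (adjusted p = 0.0366).

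TAPEs higher in cortex lay farther from genes and more often near each other than those higher in hippocampus. These are counts of single TAPEs, some of them from the same locus, without a test. The median distance to the nearest gene start was 72.1 kb for TAPEs higher in cortex, 43.5 kb for those higher in hippocampus and 40.6 kb for all tested TAPEs. Over 100 kb from any start were 32 of 71 (45.1%), 23 of 65 (35.4%) and 539 of 1870 (28.8%). The groups near Nuf2, LOC102547949 and Ptprd contribute to the distances in cortex. Counted by gene, the 32 TAPEs stand for 23 of 60 nearest genes. Of the 23 higher in hippocampus, the 21 with a gene profile stand for 19 of 59. Another called TAPE of the same direction was within 100 kb for 18 TAPEs higher in cortex (25.4%) and 6 higher in hippocampus (9.23%), and the groups near Nuf2 and Ptprd contribute to the first count. In striatum vehicle libraries, 38 of the 65 hippocampus TAPEs were below both other regions, as were 20 of the 71 cortex TAPEs and 586 of all 1870 tested. Striatum was above both regions at 3, 15 and 860 TAPEs.

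The contrast in KCl-treated cultures used libraries that did not enter the resting fit, although they count among the 19 libraries of the filter on mean CPKM. There 166 of 1870 TAPEs (8.88%) were called, 66 higher in hippocampus (3.53%) and 100 in cortex (5.35%), with a median difference of -0.15 over all tested TAPEs. Centred on the library medians, the split was 93 and 60, so the direction of the excess turned with the scaling. Leaving out 1 library gave 80 to 115 calls. Of the 65 TAPEs higher in resting hippocampus, 63 had the same direction in KCl cultures and 43 were called. Of the 71 higher in resting cortex, 66 had the same direction and 34 were called. Over all tested TAPEs 66.5% had the same direction.

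By name, the Prox1 TAPE differed by 2.01 (SE 0.36) after KCl, the Synpr TAPE by 2.7 (SE 0.29) and the Mpped1 TAPE by -3.24 (SE 0.25), each called. Among the 20 TAPEs with the smallest adjusted p, those near Nuf2 (difference -1.18, SE 0.42, adjusted p = 0.0889) and Celf2 (-0.83, SE 0.28, adjusted p = 0.075) missed the threshold. The interaction of region and treatment, which tests a change of the difference directly, was called by limma at 0 of 1870 TAPEs (0.0%), with 135 at an unadjusted p under 0.05, and limma voom on recovered reads also called 0. Without hippocampus vehicle replicate 1, the count was 1. These counts do not show that the difference stayed the same after KCl.

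**Figure D3:**
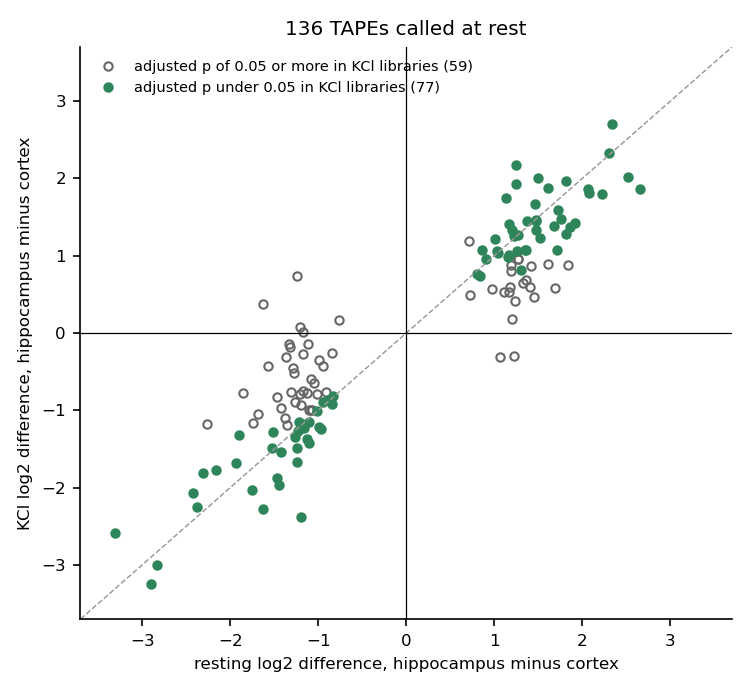
The 136 TAPEs called at rest, with the resting log2 difference (hippocampus minus cortex) on the x axis and the difference in KCl libraries on the y axis. Green points were also called in KCl libraries, open points were not, and the dashed line marks equal differences; 129 of the 136 points lie where both differences have the same sign.

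Gene levels were read back from the deposited correlations between TAPEs and genes, as whole reads per library, for 16732 genes. Calls and adjusted p of genes come from limma on each gene's profile in SD units over the 19 libraries. Levels as reads scaled to library size (RPM) and log2 differences with SE come from a limma fit of log2(RPM + 0.5), which was added after the data were seen. At rest 5210 of 16732 genes (31.1%) were called, 2766 higher in hippocampus (16.5%) and 2444 in cortex (14.6%). The added fit called 5783 of 11981 genes, and 4543 were called by both with 0 in opposite directions. The 3 cortex and 3 hippocampus levels did not overlap for 45.5% of the 16732 genes. In bulk cultures, fewer cells of a type and less RNA per cell cannot be told apart.

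The gene nearest to a called TAPE was often called in the same direction. For TAPEs higher in hippocampus this held for 31 of 62 with a gene profile (50%), and 6 were opposite. Over all tested TAPEs, 18.3% had a nearest gene higher in hippocampus. Within 10 kb of the start, 10 of 14 were called in the same direction (71.4%, against 17.1% of all tested TAPEs at that distance) and 0 were opposite. For TAPEs higher in cortex the count was 25 of 71 (35.2%, against 18.3% of all tested), with 7 opposite, and within 10 kb 6 of 10 (60.0%, against 16.5%) with 0 opposite. TAPEs that share a nearest gene are counted each, so the 71 cortex TAPEs stand for 60 genes.

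**Figure D4:**
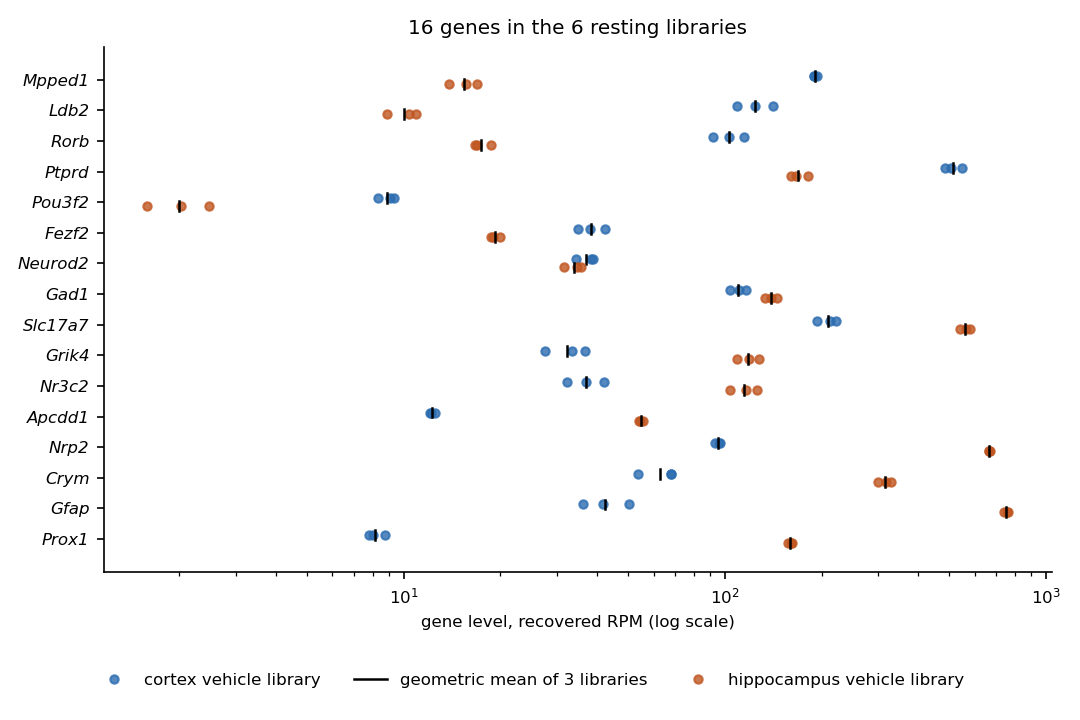
Levels of 16 genes in the 6 resting libraries, in recovered RPM on a log scale, with points for single libraries and black ticks for geometric means of 3 libraries. The cortex and hippocampus points of Prox1 and Gfap are farthest apart, and those of Neurod2 overlap; levels should be compared within a gene, since they are not divided by gene length.

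Genes of cortical projection neurons were mostly higher in cortex. In a list of 34 measured genes, 24 were higher in cortex and 7 in hippocampus (70.6% and 20.6%). Of all genes, 14.6% were higher in cortex and 16.5% in hippocampus, and the counts of each later list are to be set beside these shares. The median log2 difference of the list was -1.09 against 0 for all genes. Examples were Foxp2, a deep-layer forkhead factor (30.4 ± 3.36 against 1.61 ± 0.0999 RPM), the POU factor Pou3f1 (26.6 ± 2.25 against 1.74 ± 0.52) and Ldb2, a LIM-domain cofactor (125 ± 16.1 against 10.1 ± 1.08). Of these, Foxp2 was higher still in striatum vehicle libraries (142 ± 5.59 RPM, SD, n = 4). Rorb, a layer 4 nuclear receptor, was at 103 ± 11.5 against 17.4 ± 1.09, and Mef2c at 457 ± 18.5 against 112 ± 3.17. The 7 in the other direction included Crym, a thyroid hormone-binding protein gene (63.3 ± 8.24 against 316 ± 14.5, difference 2.32, SE 0.08), and Zfpm2 (68.5 ± 9.39 against 195 ± 14), both of which are also known outside neocortex.

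Of 25 measured hippocampal and dentate gyrus genes, 14 were higher in hippocampus (56.0%) and 6 in cortex (24.0%), with a median difference of 0.52. Prox1 had the largest difference (4.21, SE 0.06). Lhx9, a LIM homeodomain factor, was at 0.259 ± 0.0628 and 5.67 ± 0.446 RPM. Neurod1, a proneural factor of granule neurons, was at 12 ± 0.979 and 47.2 ± 1.48, and Lef1, the Wnt effector needed for dentate growth, at 3.91 ± 0.203 and 15.9 ± 1.49. Meis1 went the other way (28.0 ± 2.41 against 7.44 ± 0.641). The hippocampal label of the cultures thus had its main marker, Prox1, in all 3 hippocampus libraries, and C1ql2, a mature granule cell gene, was low at 0.946 ± 0.464 and 2.98 ± 0.272.

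Genes that excitatory neurons of both regions share gave a mixed picture. The transcription factor genes Neurod2 (37.1 ± 2.38 and 33.9 ± 2.2 RPM, adjusted p = 0.327), Neurod6 (adjusted p = 0.179) and Emx1 (adjusted p = 0.281) did not pass. The vesicular glutamate transporter gene Slc17a7 was higher in hippocampus (209 ± 13.8 against 561 ± 22.1), as were Slc17a6 (18.9 ± 1.28 against 79.3 ± 4.68) and Camk2a, a synaptic kinase gene (188 ± 0.816 against 424 ± 9.1). In total 4 of 11 were higher in hippocampus (36.4%) and 2 in cortex (18.2%).

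Axon guidance and adhesion genes separated the cultures in both directions, with 12 of 35 higher in hippocampus (34.3%), 20 in cortex (57.1%) and 3 not called. The semaphorin co-receptor genes Nrp2 (95.3 ± 1.65 against 667 ± 4.18 RPM) and Nrp1 (133 ± 3.49 against 589 ± 16.7) were higher in hippocampus, as was the cadherin gene Cdh9 (8.15 ± 0.644 against 78.7 ± 1.19), whose product is known at mossy fibre synapses. The receptor gene Plxnd1 was higher in cortex (133 ± 3.25 against 20.7 ± 0.949), as were Robo2 and the cadherin genes Cdh6 and Cdh18. Slit2 and Slit3, ligands of Robo receptors, were higher in hippocampus (Slit3 49.7 ± 3.02 against 206 ± 11.8), so these ligand genes and Robo2 had opposite directions.

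Among glutamate receptor genes 6 of 20 were higher in hippocampus (30.0%) and 7 in cortex (35.0%). Besides Grik4, Grin2a (33.7 ± 3.12 against 74.4 ± 5.25 RPM) and Gria1 (187 ± 18.1 against 396 ± 24.3) were higher in hippocampus. The metabotropic receptor genes Grm8 (38.0 ± 4.11 against 3.87 ± 0.258), Grm2 (25.8 ± 1.52 against 4.96 ± 0.5) and Grm3 (93.2 ± 4.39 against 26.9 ± 3.62) were higher in cortex. Gria2 and Grin2b, widely used subunits, did not pass (adjusted p = 0.207 and 0.934).

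In the Wnt and retinoid list 8 of 22 genes were higher in hippocampus (36.4%) and 5 in cortex (22.7%). Rxrg, a retinoid receptor gene, was at 3.02 ± 0.145 and 22.2 ± 0.654 RPM, Wnt4 at 9.1 ± 0.19 and 39.8 ± 1.08, and Axin2, a target of the pathway, at 8.63 ± 0.613 and 13.9 ± 0.653. The secreted inhibitor genes Sfrp1 (31.3 ± 3.05 against 9.03 ± 1.43) and Sfrp2 were higher in cortex. Of 10 choroid plexus and cortical hem genes, 7 were higher in hippocampus and 2 in cortex, at low levels, and the added fit, which kept 6 of the 10, called 4 and 2. Wnt8b had no read in cortex and 3.89, 4.74 and 4.0 RPM in hippocampus, and Lmx1a was at 0.097 ± 0.0594 and 3.66 ± 0.446. The choroid gene Ttr was at 0.0887 ± 0.0514 and 2.81 ± 0.374, and the summed level of this list was 38.1 to 42.2 RPM in cortex and 52.7 to 53.6 in hippocampus.

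Markers of other cells also differed, and their part in the TAPE differences was not tested. In the astrocyte and radial glia list 8 of 18 genes were higher in hippocampus (44.4%) and 7 in cortex (38.9%). Gfap, an astrocyte filament gene, was at 41.6, 36.2 and 50.4 RPM in cortex and 754, 764 and 739 in hippocampus, whereas Aldh1l1 (22.8 ± 0.928 against 9.69 ± 1.52) and Glul (670 ± 26.2 against 303 ± 18.4), which mark astrocytes too, were higher in cortex. The summed levels were 2520 to 2630 in cortex and 3160 to 3250 in hippocampus, and without Gfap they were 2470 to 2590 and 2420 to 2480, so the higher sum in hippocampus rested on Gfap. Of 14 oligodendrocyte lineage genes 9 were higher in cortex (64.3%) and 2 in hippocampus (14.3%), with summed levels of 727 to 774 and 504 to 622. Of these genes, Sox8 was at 68.2 ± 0.604 and 24.9 ± 2.25, and Nkx2-2, nearest to a called TAPE, at 4.96 ± 0.204 and 2.16 ± 0.186.

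Striatal projection neuron genes were higher in cortex for 6 of 15 (40.0%) and in hippocampus for 0, with summed levels of 416 to 469 and 222 to 262 RPM. Meis2 made up much of this sum (157 ± 11.5 against 34.9 ± 2.36), and the dopamine receptor gene Drd1 was at 4.23 ± 0.644 and 0.543 ± 0.105. For GABAergic interneuron genes the count was 3 higher in hippocampus and 2 in cortex of 21. These shares, 14.3% and 9.52%, were below the 16.5% and 14.6% of all genes. The summed levels were 873 to 896 in cortex and 890 to 923 in hippocampus. The GABA-synthesis gene Gad1 was at 110 ± 6.21 and 139 ± 5.75 (adjusted p = 0.556, or 0.000134 in the added fit), and Calb2 was higher in hippocampus (12.4 ± 1.89 against 71.4 ± 6.46). In the added fit the interneuron counts were 10 and 3, and the striatal counts 1 and 9.

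Cajal-Retzius genes gave 3 higher in hippocampus (30.0%) and 1 in cortex (10.0%) of 10, or 2 and 2 in the added fit. Nhlh2 was at 0.54 ± 0.174 and 7.9 ± 0.109 RPM, and Reln, the secreted signal of these cells, was equal within the spread (235 ± 5.22 and 234 ± 7.46, adjusted p = 0.972). The thalamic list gave 3 (Lhx9, Lef1 and Calb2) and 2 (Foxp2 and Tcf7l2) of 8, all of them genes also in other lists. Of 11 microglia and vascular genes, 2 were higher in hippocampus and 1 in cortex (18.2% and 9.09%, against 16.5% and 14.6% of all genes). The summed levels were 12.3 to 13.1 RPM in cortex and 16.9 to 19.0 RPM in hippocampus. Aif1, a defining microglial gene, had no read in any of the 6 libraries. Pdgfrb, a pericyte receptor gene and most of the cortex sum, was higher in cortex (11.0 ± 0.332 against 7.11 ± 0.0945), and without it the sums were 1.65 to 1.86 and 9.92 to 11.9. Kdr, a receptor for Vegfa, was at 0.264 ± 0.126 and 6.76 ± 0.384, and Cldn5, a junction gene of endothelium, at 0.00955 ± 0.00829 and 0.0237 ± 0.0108.

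Immediate early genes, which neuronal activity switches on, were called in both directions. Of 22, 5 were called higher in resting hippocampus (22.7%, close to the 16.5% of all genes). Only 1, Sik1, was called higher in cortex (4.55%, against 14.6% of all genes). Its adjusted p was 0.0455 in the SD-unit fit, and this call was lost under 9 other settings. The median difference of the list was 0.02 SD, and the added fit called 10 and 8. The 5 included Egr1, Egr2 and Egr3. Egr2 was at 2.92 ± 0.173 and 12.7 ± 0.707 RPM, Egr3 at 8.44 ± 0.0426 and 24.6 ± 0.724, and Egr1 at 57.7 ± 5.19 and 124 ± 5.05. Arc was at 2.78 ± 0.291 and 15.9 ± 2.26, but it passed in the added fit (adjusted p = 9.9e-10) and missed in the SD-unit fit (adjusted p = 0.101). After KCl the same difference was -0.85 for Egr2, -0.03 for Egr3 and -0.9 for Arc. The change of a gene's difference with KCl was not tested. None of the 13 tested TAPEs nearest to a gene of this list was called at rest.

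**Figure D5:**
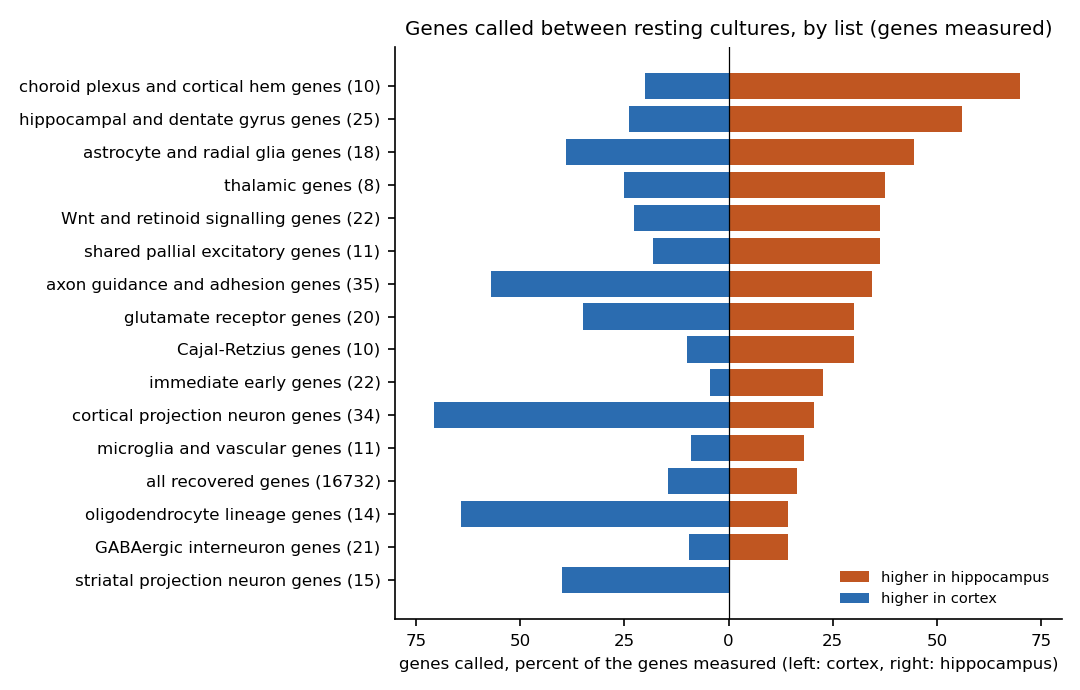
Genes called between resting cultures in 15 lists and among all 16732 genes, as a percentage of the genes measured (number in brackets). Orange bars to the right are genes higher in hippocampus and blue bars to the left genes higher in cortex. Farthest left are cortical projection neuron genes (70.6%), and farthest right choroid plexus and cortical hem genes (70.0%). Hippocampal genes reach 56.0% to the right.

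Over all genes, those with the smallest adjusted p included some outside these lists. St18, a zinc finger factor gene, was at 5.4, 5.14 and 6.1 RPM in cortex and 111, 109 and 112 in hippocampus, a difference as large as that of Prox1 (4.21, SE 0.07). Syn2, which encodes a synaptic vesicle phosphoprotein, was at 133, 126 and 127 against 527, 522 and 490, and Igfbp2, an insulin-like growth factor binding protein gene, at 58.4, 57.2 and 52.4 against 232, 229 and 226. In cortex, Fgfr3, a fibroblast growth factor receptor gene, was at 68.6, 70.9 and 70.5 against 25.7, 27.0 and 25.6, and the somatostatin receptor gene Sstr1 at 23.3, 24.6 and 23.9 against 4.95, 4.44 and 4.82. Kcnj2, an inward rectifier channel gene, had a difference of -2.81 (SE 0.12) at rest and -0.87 after KCl. Of the 5210 resting calls, 5050 had the same direction in KCl cultures and 3856 were called there in that direction, where 5942 genes (35.5%) were called in all.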

How the data were processed

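Total RNA, depleted of ribosomal RNA, was sequenced as directional paired-end reads. The authors trimmed reads (Trim Galore 0.4.5), aligned them to rn6, merged lanes (SAMtools 1.9) and defined TAPEs on pooled ATAC-seq and RNA-seq libraries. The deposited TAPE values are RPKM (the study's CPKM). In these values both strands are counted, duplicates are kept and the mates of a fragment are often 2 reads. The correlations the authors deposited are a score from -1 to 1, the Pearson r of TAPE with gene CPKM over libraries. The gene region and strand counted are not given in the sources used here, so overlapping and antisense genes are uncertain.

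CPKM times length and depth gave whole reads for 100.0% of values (within 0.01 read). Each gene's profile over 19 libraries was solved from its correlations, for 16732 of 17715 symbols (94.5%). The smallest whole reads with that profile gave RPM, and a factor common to all counts of a gene would rescale its levels but not its folds. These genes held 70.5 to 72.7% of a library's reads.

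TAPEs were tested with limma 3.58.1 in R 4.3.3 (eBayes with trend) on log2(CPKM + 0.05), a scale that understates changes of low TAPEs. The filter fell between mean CPKM of 0.05003 and 0.05. Genes were tested by limma on profiles in SD units and, as an alternative chosen after seeing the data, on log2(RPM + 0.5) for genes with a mean RPM of at least 0.5. Fits used only the libraries compared, 6 for each region difference. Floors of 3 reads treat reads as independent. Mates of a fragment are often 2 reads and there are no molecular identifiers, so the floors do not cover all counting error. Alternatives changed the pseudocount, filter, centring, libraries fitted, block or test. The text names the 10 TAPEs per direction with the smallest adjusted p whose groups did not overlap, their nearest genes, the TAPE near Prox1, genes nearest to 3 or more calls, up to 4 genes per list and direction by size, and some of the 10 genes per direction with the smallest adjusted p. Other features were chosen after their values were seen. The members and lists were chosen with earlier results of these data known. Methods were tested on simulated reads with an assumed spread. There the TAPE test found 6.45% of 2-fold and 60.3% of 4-fold changes. The gene test in SD units found 6.25% and 52.3%, and the log2 RPM fit 97.8% and 100%. A missing call therefore does not show equal levels. In the simulation for the SD-unit test, 64, 65 and 63 of 16246 genes changed 2-, 4- and 8-fold. In the data 31.1% of genes were called, which makes the adjustment of p less strict, so the simulated shares of genes found need not hold here. Python 3.11.15, numpy 2.4.6, pandas 2.3.3, scipy 1.17.1, numba 0.67.0 and matplotlib 3.10.9 were used. TAPE positions are rn6, and printed sequences are RefSeq GRCr8. A few genes, and the TAPE nearest to 1 of them, are not reported here.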

Additional observations from a re-analysis of the deposited data

How the results depend on the processing

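With no filter on low TAPEs, the count of the resting TAPE difference fell to 0 of all TAPEs by limma (1529 at an unadjusted p under 0.05) and the KCl count to 1. The 20 TAPEs with the smallest adjusted p lost their calls there and under no other setting. Other pseudocounts, a mean CPKM of at least 0.1, centring, voom and 1 fit of all groups gave 101 to 167 resting calls. Leaving out 1 library gave 72 to 93 resting calls (73 without cortex vehicle 1, 83 without cortex vehicle 2 or hippocampus vehicle 1, 89 without hippocampus vehicle 2) and 80 to 115 KCl calls (95, 80 and 96 without cortex KCl 1, 2 and 3, and 88 and 84 without hippocampus KCl 2 and 3), with fewer samples in each fit. The interaction count ranged from 0 to 1, the 1 coming without hippocampus vehicle 1. The difference in the share of reads in TAPEs ranged from -0.0083 to 0.0022 percentage points and turned to 0.0022 without cortex vehicle 3 and to 0.00014 without hippocampus vehicle 1. The gene Spata19, with 5 reads in cortex, 3 in hippocampus and no call, ranged from -0.93 to 0.68 SD (0.09 without hippocampus vehicle 1 or 2). Calls of the resting gene profile difference ranged from 3579 to 6432 under the alternatives with a test. The cause was not tested.

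Replicate numbers are shared by the groups, but the deviations of same-numbered libraries correlated at -0.27 to 0.12 for genes and at -0.02 to 0.02 for TAPEs, so the numbers were not taken as pairs. Not every library correlated best with its own number. With the replicate block the resting TAPE count was 129, of which 121 were among the 136, and the KCl count was 100. The block gave 3579 calls for the resting gene profile difference and 4620 for the depolarized gene profile difference (after KCl), or 5415 and 6460 on log2 RPM. Of the named genes' calls, 16 were lost under the block, 3 with robust variances, 1 with 1 fit of all groups and 5 to 12 without 1 library. Among the named genes given with values in the text, calls were lost for Synpr (also with robust variances, adjusted p = 0.0883, and the block, 0.118) and Vegfa. Foxp2 (0.0593 under the block) and Sik1 lost theirs as well. Other genes given with values, such as Wnt7b, Fezf2 and Egr1, were not followed over these settings. Depth limits low TAPEs, since a median of 12 reads leaves most differences of a few reads undetectable.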
